A study of Mus musculus with 5 samples.

Results

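The N6-methyladenosine (m6A) levels of Nup62 and of 6 further genes for nuclear transport and the Ran cycle (Kpnb1, Kpna2, Ran, Ranbp1, Rcc2 and Nutf2) were examined at every adenosine that direct RNA sequencing covered on their exons in mouse embryonic stem cells (mESCs). In this method native RNA molecules pass through a nanopore, and each adenosine of each read is called as m6A, unmodified or carrying another modification. A position was covered when every library of its dataset had at least 25 valid calls, meaning calls that passed the confidence filter, and its m6A level was the share of valid calls that were m6A. A covered exonic position counted as a site when any library of the dataset reached a level of 25%. Of the 7 genes, 4 had covered positions, of 2757 genes in the series that did. Kpna2, Ranbp1 and Nutf2 had 0 and were not analysed here.

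The METTL3 inhibition dataset compared 2 libraries of E14 mESCs, one culture kept in 0.025% v/v DMSO and the other in 30 µM STM2457, an inhibitor of the methyltransferase METTL3, for 48 h. Both cultures were of the same engineered line, which carries the 2C::3xtbGFP-PEST and Zscan4::mCherry-PEST reporters, a Dox::APOBEC1-YTH-HA-IRES-tdiRFP transgene that was not induced, and a homozygous FKBP12 F36V knock-in at the C-terminus of Mettl3, also not induced. The Mettl5 dataset compared 1 WT library with 1 library from each of 2 Mettl5-KO clones, which were made in an earlier study and received no treatment. Each knockout line is 1 clone. Cells were cultured on gelatin in serum and LIF, with the 2i kinase inhibitors PD032591 and CHIR99021 added for maintenance. With 1 library per condition or clone, a difference between libraries includes whatever varies from culture to culture.

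The libraries held 71574467 valid calls for DMSO, 54051900 for STM2457 and between 17897440 and 22025887 for the Mettl5 dataset, with a median of 45 to 64 per position. Of 10 mESC markers, 9 had covered positions in the METTL3 inhibition dataset and 7 in the Mettl5 dataset, while 0 of 10 markers of other cells had any. Mettl5 itself had 0 covered positions in the Mettl5 dataset and Mettl3 had 0 in the other, so the knockout could not be checked from these data.

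NUP62 is a nucleoporin with FG repeats that sits in the central channel of the nuclear pore complex, where it contacts transport receptors. KPNB1, importin beta, carries cargo through this channel, KPNA2 is an importin alpha adaptor, and NUTF2 returns the small GTPase RAN to the nucleus. RAN in its GTP form releases import cargo and holds export cargo, RANBP1 assists the hydrolysis of its GTP, and RCC2 is a relative of the nuclear RAN exchange factor that works at the centromere and in mitosis. On mRNA, m6A is placed in the nucleus by METTL3 with METTL14, mostly in the motif DRACH (D stands for A, G or T, R for A or G, H for A, C or T) and most densely in long internal exons and around the stop codon, and readers of the YTH family recognise it. METTL5 is known as the methyltransferase of an adenosine in 18S ribosomal RNA.

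The sequences around some of the sites described below are given from the GENCODE M21 transcripts (mm10), 5′ to 3′ on the transcript strand, with T for U. Capitals mark the methylated adenosine and the pair of bases on each side of it. The first set holds the 6 covered GGACT motifs of Nup62, of which the site at coding base 1460 is the one that STM2457 left high, and the GGACC that lies next to it.
Nup62 GGACT at coding base 142, chr7:44828694-44828714 (+): taattttgGGACTccctccca
Nup62 GGACT at coding base 763, chr7:44829315-44829335 (+): tagtgctgGGACTttgggctt
Nup62 GGACT at coding base 976, chr7:44829528-44829548 (+): agcagctgGGACTgccacagg
Nup62 GGACT at coding base 1193, chr7:44829745-44829765 (+): caggagctGGACTttatcctg
Nup62 GGACT at coding base 1460, chr7:44830012-44830032 (+): gcacacatGGACTctcttcag
Nup62 GGACC at coding base 1478, chr7:44830030-44830050 (+): cagtgggtGGACCagagctct
Nup62 GGACT 469 bases after the stop codon, chr7:44830602-44830622 (+): tgtggcagGGACTgactgctg

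The second set holds some of the other Nup62 sites described singly, with motifs in and outside DRACH, since both kinds occur among the sites.
Nup62 GAACT 177 bases after the stop codon, chr7:44830310-44830330 (+): aggtcactGAACTctcggcca
Nup62 AGACT 317 bases after the stop codon, chr7:44830450-44830470 (+): cagacgagAGACTcacctggg
Nup62 GGATA at coding base 1370, chr7:44829922-44829942 (+): gacctcaaGGATAtcatcgag
Nup62 CCACA at coding base 79, chr7:44828631-44828651 (+): tgcgaccaCCACAcctgccac
Nup62 CCAAC at coding base 397, chr7:44828949-44828969 (+): cagcacctCCAACcaggggac

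The third set holds sites of Kpnb1, Ran and Rcc2 that are described singly, either for a high level or for their levels in the Mettl5 dataset.
Kpnb1 AGACT 2536 bases after the stop codon, chr11:97160135-97160155 (-): catcggatAGACTtgggtttg
Kpnb1 GGATT 250 bases after the stop codon, chr11:97162421-97162441 (-): gaaacaatGGATTtacttact
Ran GGACT 183 bases after the stop codon, chr5:129022991-129023011 (+): cattttttGGACTtgcatatt
Rcc2 TGACC 88 bases after the stop codon, chr4:140721282-140721302 (+): gcaaaagtTGACCaagggtgc

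The 4 covered genes held 1746 covered positions and 29 sites in the METTL3 inhibition dataset, and 1623 positions and 34 sites in the Mettl5 dataset. Together these were 37 sites, 34 of which were covered in both datasets and 26 of which passed the threshold in both. Over all exonic positions, 1.38% were sites in the METTL3 inhibition dataset (6465 of 468161) and 1.05% in the Mettl5 dataset (2024 of 193656). Nup62 (ENSMUSG00000109511.1, chr7:44816088-44830812) held most of the sites, with 21 in the METTL3 inhibition dataset and 23 in the Mettl5 dataset. Kpnb1 (ENSMUSG00000001440.5, chr11:97159714-97187881) held 3 and 4, Ran (ENSMUSG00000029430.13, chr5:129020069-129024323) 2 and 2, and Rcc2 (ENSMUSG00000040945.13, chr4:140700541-140723220) 3 and 5. Only 3 of the 1724 protein-coding genes with a site had more sites than Nup62 in the METTL3 inhibition dataset, where the median gene had 3. In the Mettl5 dataset 1 of 609 had more, and the median was 2. These ranks are not scaled by covered positions, of which Nup62 had 511 and 447. Since the sites were chosen on these levels, the counts describe the genes and were not tested.

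All covered positions of Nup62 lay in exon 2 of 2 of transcript Nup62-201 (chr7:44828487-44830812), which is 2326 bases long and holds the whole coding sequence. The 511 positions of the METTL3 inhibition dataset comprised 21 in the 5′ UTR, 347 in the coding sequence and 143 in the 3′ UTR, and the 21 sites comprised 16 coding sites and 5 in the 3′ UTR. The median depth was 123 valid calls for DMSO, 117 for STM2457, 40 for WT and 40 and 48 for the clones. At the other 490 positions the median was 0.775% for DMSO and 0.694% for STM2457, with a highest level of 24.3% and 14.5%, which the threshold of 25% bounds. Of 40 covered DRACH positions on the exon, 18 (45.0%) reached 25% in DMSO, against 14.2% over all genes. In WT, 16 of 39 did.

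**Figure D1:**
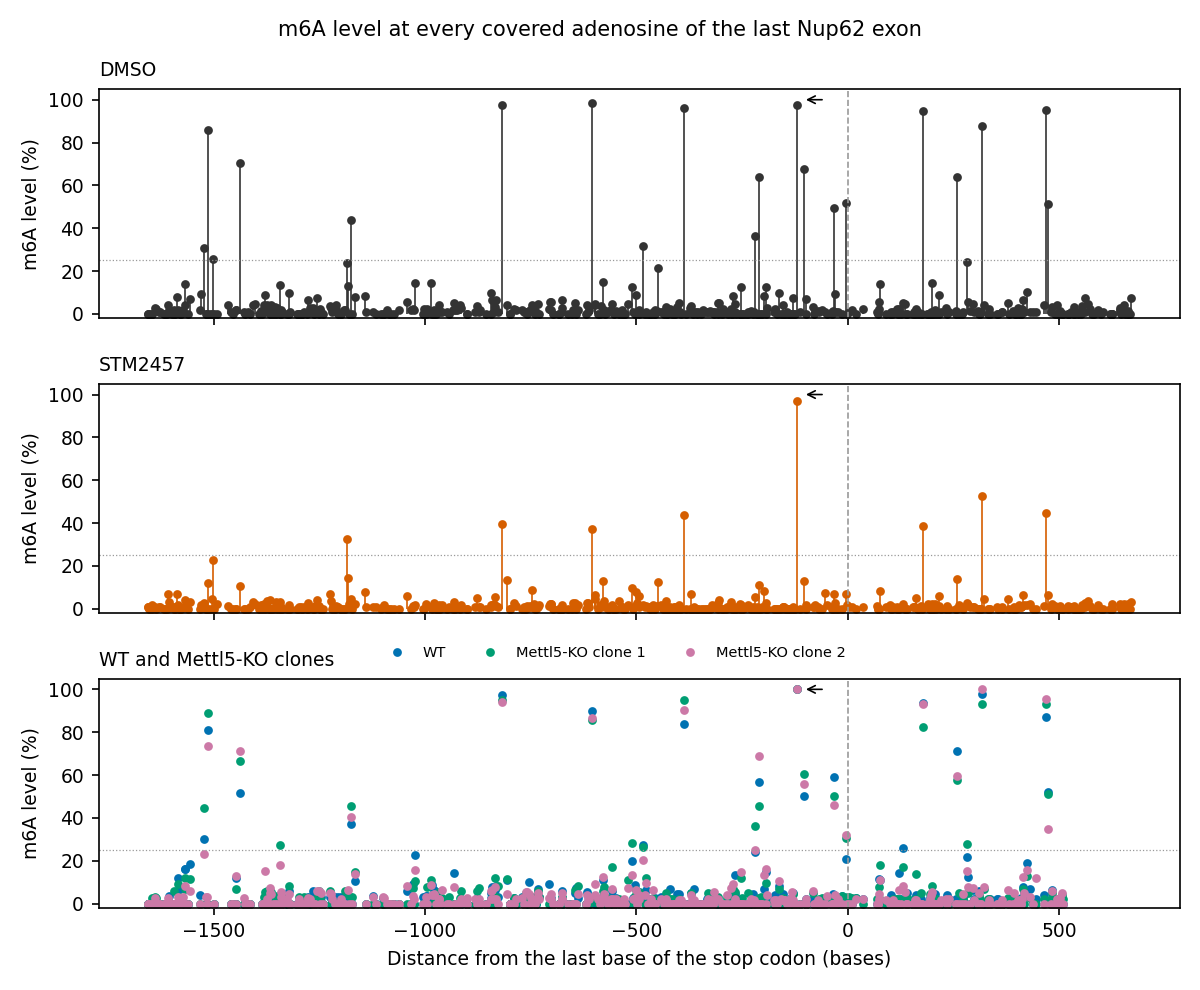
m6A level (%) of each covered adenosine on exon 2 of Nup62 against its distance from the last base of the stop codon, with DMSO above, STM2457 in the middle and WT with both Mettl5-KO clones below. The dashed line marks the stop codon, the dotted line the 25% threshold and the arrow the coding GGACT at base 1460, which stood at 97.7% in DMSO, 96.9% in STM2457 and 100% in the other 3 libraries, where the points cover each other.

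The levels of Nup62 differed between 5-base motifs, with overlap among them. All 6 covered GGACT positions were at 25% or more in DMSO, between 70.5% and 98.3% with a median of 97.0%, while 54.6% of the GGACT positions of all genes reached 25%. At 90% or more stood 5 of these 6, beside 14.4% over all genes. Both AGACT positions (85.8% and 87.9%) and both GAACT positions (63.8% and 94.7%) were sites too, against 31.3% and 35.4% over all genes. Of the 5 GGACC positions 4 were sites, between 30.7% and 67.8%, and the other was at 5.22%, beside 19.0% of positions over all genes. The covered GGACA was a site (44%), beside 32.0% over all genes, and GAACA was one at 1 of 6 positions, with 49.6%, beside 7.25%. TGACT was a site at 2 of 3 positions, beside 17.5%. None of the 5 AGACC and 4 AAACC positions passed, beside 2.53% and 0.323% over all genes, and their highest levels were 8.62% and 6.56%. Positions with the same motif thus differed widely within this exon, as GGACC shows.

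The coding GGACT at base 1460 of Nup62 (chr7:44830022) lies 121 bases before the last base of the stop codon. It was singled out from these same libraries as the coding DRACH site of Nup62 with the smallest relative decrease in STM2457. Its small decrease and its contrast with other sites therefore follow from that choice. Its level was 97.7% in DMSO (133 valid calls, exact binomial 95% interval 93.5% to 99.5%) and 96.9% in STM2457 (129 valid calls, 92.3% to 99.1%), so the relative decrease, which sets the difference against the DMSO level, was 0.865%. In the Mettl5 dataset every valid call was m6A, over 46 calls for WT, 45 for clone 1 and 56 for clone 2, and the 147 calls together have a lower bound of 97.5%. The site was therefore near saturation in all 5 libraries. Intervals cover counting error only. No call at this position was of another modification, and failed calls were 3.62% of the valid and failed calls in DMSO and 3.73% in STM2457.

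The nearest other site did not share this response. Within 25 bases there were 12 other covered adenosines, and the GGACC at base 1478 was the only one of them at 25% or more in DMSO. The rest were at 7.52% or less in DMSO, so the comparison rests on the GGACC. That neighbour went from 67.8% in DMSO (121 valid calls) to 13% in STM2457 (123 valid calls), while WT had it at 50%, clone 1 at 60.5% and clone 2 at 55.8%. The highest level among the 12 in STM2457 was the same 13%. The 2 positions are 18 bases apart, and their depths were close.

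The other Nup62 sites that were near saturation in DMSO were all lower in STM2457. The GGACT at base 763 was at 97.7% in DMSO (128 valid calls) and 39.5% in STM2457 (119 valid calls). The GGACT at base 976 was at 98.3% of 121 calls and 37.1% of 124, and that at base 1193 at 96.3% of 134 and 43.9% of 123. In the 3′ UTR, the GAACT at 177 bases was at 94.7% and 38.7%, and the GGACT at 469 bases at 95.4% and 44.5%. These 5 sites thus stood between 37.1% and 44.5% in STM2457, with intervals that overlap each other. The AGACT at 317 bases was at 87.9% in DMSO (interval 81.4% to 92.8%) and 52.4% in STM2457 (43.9% to 60.9%). Its level in STM2457 was above those of the 5 sites, but its interval overlaps each of theirs. It was not among the highest in DMSO, while WT had it at 98.0%.

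**Figure D2:**
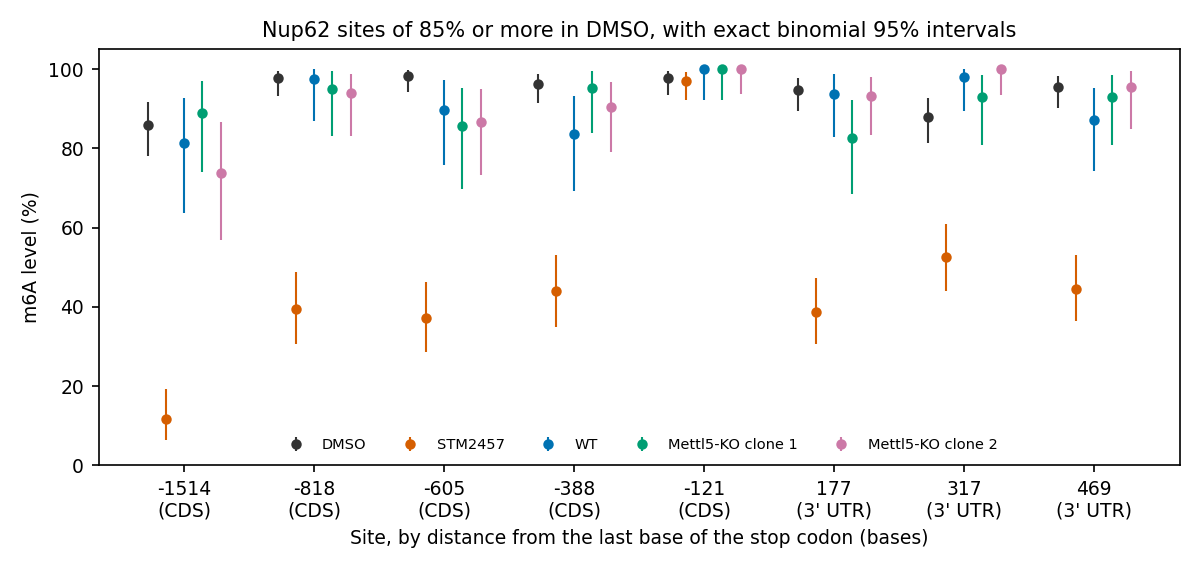
m6A level (%) of the 8 Nup62 sites at 85% or more in DMSO, in all 5 libraries, placed by distance from the last base of the stop codon. Points are levels and bars exact binomial 95% intervals. In STM2457 the site at 121 bases before the stop codon stood at 96.9% and the other 7 between 11.8% and 52.4%.

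Most DRACH sites with a lower DMSO level than these stood lower in STM2457 too. The AGACT at base 67 was at 85.8% in DMSO and 11.8% in STM2457, which set it apart from the AGACT of the 3′ UTR with nearly the same DMSO level. The GGACT at base 142 was at 70.5% and 10.6%, and the GAACT at 258 bases after the stop codon at 63.8% and 14.1%. The GGACC sites at bases 58, 1097 and 1361 were at 30.7%, 31.7% and 36.2% in DMSO and at 2.83%, 1.65% and 5.34% in STM2457. The TGACT at base 1577, beside the stop codon, was at 52.0% and 6.87%, and the TGACT at 473 bases, 4 bases from the GGACT at 469, at 51.5% and 6.47%. A pair of sites on the same short stretch therefore stood at 44.5% and 6.47% in STM2457, from 95.4% and 51.5% in DMSO.

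This relation between the DMSO level and what remained held over the series. For all sites between 25% and 50% in DMSO the median level in STM2457 was 5.0% (2932 sites), for those between 50% and 90% it was 14.3% (2632 sites), and for those of 90% or more it was 42.9% (792 sites, quartiles 32.5% and 57.5%). The Nup62 medians in the same classes were 4.85% (6 sites), 11.5% (8 sites) and 41.7% (6 sites). For GGACT alone at 90% or more the median over all genes was 44.5% (368 sites). Of the 792 sites, 17 (2.15%) were at 90% or more in STM2457 as well, among them 6 GGACT sites, and 3 of the 792 were above the Nup62 coding site.

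**Figure D3:**
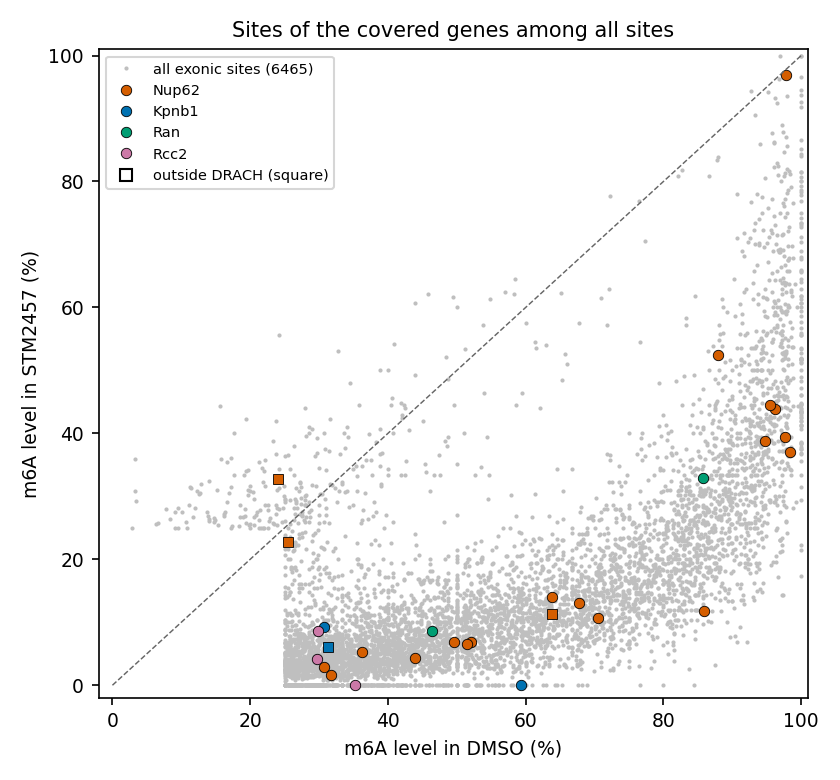
m6A level (%) in STM2457 against DMSO for the 6465 exonic sites (grey) and the sites of Nup62, Kpnb1, Ran and Rcc2 (coloured, squares for motifs outside DRACH). The dashed line marks equal levels. The Nup62 coding site at 97.7% and 96.9% lies on this line, above the group of Nup62 sites at 37.1% to 44.5%.

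Over the 4 genes, 25 of the 28 sites at 25% or more in DMSO were lower by at least 50% of their level in STM2457, beside 89.5% of all such sites in the series (5686 of 6356). The split was 17 of 20 for Nup62, 3 of 3 for Kpnb1, 2 of 2 for Ran and 3 of 3 for Rcc2. The mean level over the 28 sites was 60.3% in DMSO and 19.3% in STM2457, and the median relative decrease was 81.1%, against 57.0%, 16% and 80.2% over all sites. No p-value is given for STM2457, since the genes were chosen on this contrast and each condition had 1 library. The 3 sites with a smaller decrease were the coding GGACT at base 1460, the AGACT at 317 bases with a relative decrease of 40.4%, and the CCACA at base 79 with 10.3%.

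Sites outside DRACH differed in their response. The GGATA at base 1370 of Nup62 was at 63.8% in DMSO and 11.3% in STM2457, and the GTACT at 281 bases after the stop codon at 24.3% and 2.59%. The GGATT of Kpnb1 was at 31.4% and 6.03%. These 3 were lowered like DRACH sites. The CCACA at base 79 of Nup62 was at 25.4% and 22.8%, the CCAAC at base 397 at 24.0% and 32.7%, the GCAGC at base 1070 at 12.5% and 9.86%, and the CCACG of Rcc2, 38 bases after the stop codon, at 14.8% and 19.4%. Their intervals overlapped between the libraries.

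At those last 4 sites many calls failed the confidence filter in DMSO, with 47.8%, 59.7%, 51.1% and 33.0% of the valid and failed calls. The 28 DRACH sites of the 4 genes had a median of 5.10% and at most 15.6%, and the GGATA had 0%. The levels of these 4 sites therefore rest on fewer reads than cross them, and the part of failed calls in the levels was not tested. Over all sites at 25% or more in DMSO, 57.1% of those outside DRACH (365 of 639) and 93.1% of those in DRACH were lower by at least 50% in STM2457.

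The threshold cut through a continuum. The members just inside it in the METTL3 inhibition dataset were the CCACA of Nup62 at 25.4% and the Rcc2 TGACC at 29.6%, and those just outside were a GGACC of Kpnb1 at 24.7% and the GTACT of Nup62 at 24.3%. In the Mettl5 dataset a TCATG of Nup62, 131 bases after the stop codon, was just inside at 25.8%, and a GTATG of Rcc2 was just outside at 24.3%.

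Kpnb1 was covered from exon 21 to the last exon, 22 of 22, which is 2968 bases long and holds the whole 3′ UTR. Its 3 sites equalled the number of the median gene. Of its 50 covered DRACH positions 2 (4.0%) reached 25% in DMSO, beside 14.2% over all genes, and none did so in the coding part. The GGACT at the 5′ end of exon 21, which is 162 bases long, stood at 0.662% of 151 valid calls in DMSO and 0.752% of 133 in WT. The 6 GGACT positions of Nup62, on an exon of 2326 bases, reached 25% in DMSO. The GGACT positions on the last exon of Kpnb1, 2683 and 2700 bases after the stop codon, did not. They stood at 7.14% of 28 valid calls and 3.70% of 27 in DMSO. Low levels of GGACT in Kpnb1 were thus found on the short exon and on the long one. The part of exon length was not tested. In the 3′ UTR, the TGACT 339 bases after the stop codon was at 30.7% in DMSO (179 valid calls) and 9.26% in STM2457 (108), and the GGACC at 358 bases at 24.7% and 5.93%. The Mettl5 dataset gave both sites levels between 24.5% and 33.6% in all 3 libraries.

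The AGACT of Kpnb1, 2536 bases after the stop codon, varied most of these sites among the 4 libraries without STM2457. Its level was 59.3% of 27 valid calls in DMSO (interval 38.8% to 77.6%), 0 of 30 in STM2457, which allows a level of up to 10%, 2.22% of 45 in WT, and 15% of 40 and 31.6% of 38 in clones 1 and 2. DMSO stood above WT without overlap of their intervals, and both clones lay between them. The depth in this part of the 3′ UTR was low. The median over covered positions dropped from 174 valid calls at 200 to 400 bases to 26 at 2400 to 2500 bases in DMSO. In WT it dropped from 170 to 45. Covered positions have at least 25 valid calls, which bounds these medians from below. The levels at this site thus rest on far fewer reads than those near the stop codon.

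Ran was covered on exons 4 to 6 of 6 in the METTL3 inhibition dataset and on exon 6 alone in the Mettl5 dataset, and both its sites lay in the 3′ UTR. The GGACT 183 bases after the stop codon was high, with 85.7% in DMSO (84 valid calls), 33.0% in STM2457 (94), 79.4% in WT (34), and 92.9% (28) and 86.8% (38) in the clones. The AGACT at 241 bases stood at 46.5% in DMSO, 8.62% in STM2457, 25.7% in WT, and 53.1% and 37.1% in clones 1 and 2. Another pair of GGACT motifs further along the same 3′ UTR, at 692 and 847 bases, stood at 15.4% and 0% of 26 valid calls each in DMSO, well below the GGACT at 183 bases. A count of 0 of 26 allows a level of up to 11.5%.

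Rcc2 was covered on its last exon, 15 of 15, and each site lay in the 3′ UTR at a moderate level. The TGACC at 88 bases was at 29.6% of 162 valid calls in DMSO and 4.12% of 97 in STM2457. The GGACT at 375 bases was at 29.9% and 8.57%, and the TGACT at 999 bases at 35.2% of 71 valid calls and 0 of 35, which allows up to 8.57%. No Rcc2 site passed 40% in any library. The depth of Rcc2 was also lower in STM2457, with a gene median of 39 calls per position, counting valid and failed calls and reads with another base, against 77 in DMSO. Scaled by the median gene ratio of the libraries this was 0.624 times the DMSO depth, the 6.13 percentile of 2445 genes, while 19.3% of genes differed by at least 1.5-fold in either direction. Nup62 had a scaled ratio of 1.17, Kpnb1 one of 0.928 and Ran one of 1.44. Against WT, Kpnb1 had scaled ratios of 0.661 in clone 1 and 0.430 in clone 2, the 7.64 and 3.49 percentiles of 916 genes, of which 14.8% and 21.8% differed by at least 1.5-fold. Because the depth of Kpnb1 drops in steps along its 3′ UTR, this ratio depends on where the middle position falls, and at 200 to 400 bases after the stop codon WT had a median of 170 valid calls and the clones 102 and 135. With 1 library per condition or clone these depth ratios were not tested, and fewer cells with the transcript cannot be told apart from less of it per cell.

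**Figure D4:**
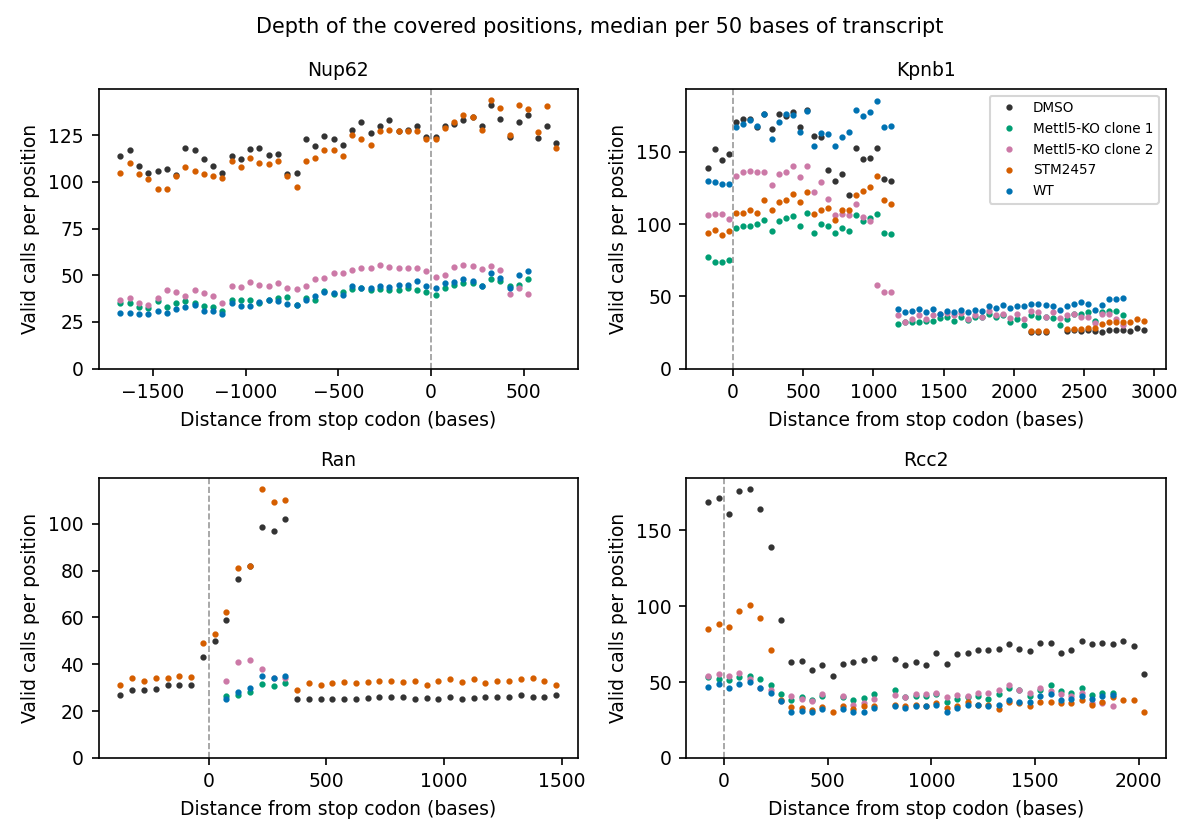
Median number of valid calls per covered position in bins of 50 bases of transcript, by distance from the stop codon (dashed line), for the 4 genes and 5 libraries. Kpnb1 shows a step to a low depth in the 3′ UTR, from 174 valid calls in DMSO near the stop codon to 26 at 2400 to 2500 bases, and Nup62 a more even depth. Depth in DMSO also drops in Ran, from 102 in the bin at 300 bases to 25 at 350. In Rcc2 it drops from 177 at 100 bases to 63 at 300. Covered positions have at least 25 valid calls, which bounds the low values.

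The Mettl5 dataset asked whether loss of METTL5 changes the level of m6A on mRNA. The rule that defines the Nup62 site names STM2457 and not this contrast, although the genes were chosen with earlier results of both datasets known. For each clone against WT, the m6A calls and the remaining valid calls of a site entered a two-sided Fisher's exact test, and p-values were adjusted by Benjamini-Hochberg over all 2024 exonic sites. Since there was 1 WT library, shared by both comparisons, the test compares libraries. Of the 34 sites of the 4 genes, 0 had an adjusted p below 0.05 in both clones, beside 0.247% of all sites that were lower in both (5) and 0% that were higher in both. Without adjustment, 2 sites had p below 0.05 in both clones, each higher than WT, beside 1.93% of all sites that were higher and 0.494% that were lower in both at this threshold. Clone 1 against clone 2 gave 0 sites past the adjusted threshold, beside 0.0494% of all sites. The lowest p of the 34 by Fisher's exact test was that of the GGATA of Nup62 (45.5% and 69.0%), at 0.025. Its adjusted p was 0.99, so it is not read as a difference. By direction alone, 15 of the 34 sites were above WT in both clones and 10 were below it, beside 45.0% and 22.9% of all sites.

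For Nup62 the libraries were close. WT had a mean level of 55.7% over the 23 sites, clone 1 one of 58.6% and clone 2 one of 55%, and none of the 23 passed the adjusted threshold in either clone. The lowest adjusted p values of Fisher's exact test were 0.48 for clone 1 and 0.70 for clone 2. Sites near saturation in DMSO were high in all 3 libraries, as with the GGACT at base 763, which stood at 97.5%, 95% and 93.9% in WT, clone 1 and clone 2, and the AGACT at 317 bases, which stood at 98.0%, 93.0% and 100%. A depth of 40 to 48 valid calls leaves wide intervals, for example 34.6% to 65.4% for the GGACC at base 1478 in WT, and a difference within such an interval was not detectable at this depth.

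Rcc2 held the only site called in a clone. The TGACC at 88 bases was at 2.08% of 48 valid calls in WT, 31.4% of 51 in clone 1 (adjusted p = 0.025, Fisher's exact test) and 14.8% of 54 in clone 2 (adjusted p = 0.57), beside 0.198% of all sites called higher in clone 1 and 0.247% called lower. In clone 2, where 0 of the 34 sites were called, the shares were 0.247% and 0.296%. The difference between the clones had an adjusted p of 0.99. For the AGACT of Kpnb1 the adjusted p was 0.72 for clone 1 and 0.064 for clone 2 by the same test. The GAACA of Nup62 at base 238 had 3.33% of 30 calls in WT and 27.3% of 33 and 17.9% of 39 in the clones, with adjusted p values of 0.48 and 0.74. These 3 were also the sites with a log2 ratio to WT of at least 1.5 in both clones, beside 1.09% of all sites. Each had 1 m6A call in WT and reached 25% in a clone alone, as did 10 of the 34 sites, so that a higher level in that clone was a condition of their entry. For all sites that share was 23.5%.

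**Figure D5:**
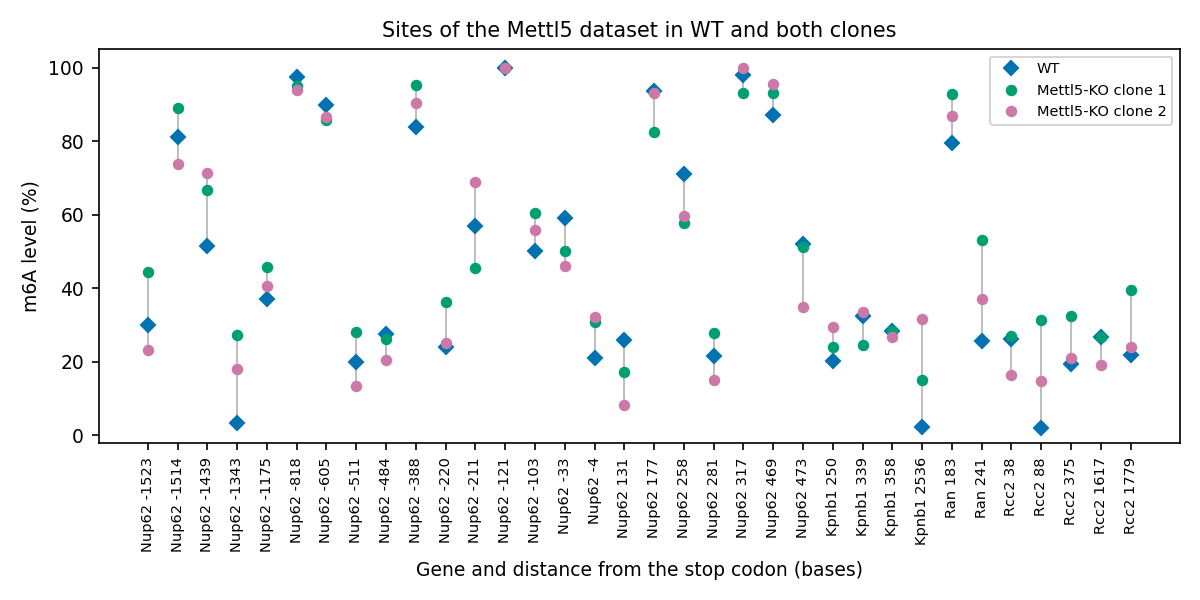
m6A level (%) at the 34 sites of the Mettl5 dataset in WT (diamonds) and both Mettl5-KO clones (circles), with sites named by gene and distance from the stop codon in bases. A grey line joins the lowest and highest library of a site. The widest upward gaps from WT are those of Kpnb1 at 2536 bases, from 2.22% to 31.6%, and of Rcc2 at 88 bases, from 2.08% to 31.4%.

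The mean level of the other 3 genes rested on few sites. Over its 4 sites Kpnb1 had 20.9% in WT, 23.0% in clone 1 and 30.3% in clone 2, for Ran 52.6%, 73.0% and 62% over 2 sites, and for Rcc2 19.3%, 31.4% and 19.0% over 5 sites. As log2 ratios to WT these means were 0.14 and 0.54 for Kpnb1, 0.47 and 0.24 for Ran, and 0.70 and -0.02 for Rcc2, against 0.07 and -0.02 for Nup62. Over all 608 genes the median ratio was 0.10 in clone 1 and 0.08 in clone 2, with a range from the 5th to the 95th percentile of -0.52 to 0.80 and -0.52 to 0.88. All 4 genes lay within these ranges in both clones.

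DMSO and WT were the libraries with neither STM2457 nor a Mettl5 knockout. The cells of DMSO received the solvent and those of WT did not, their lines differ, and the labels give them different batches, which cannot be told apart. Of the 31 sites covered in both and at 25% or more in DMSO or WT, 21 were higher in DMSO, beside 78.0% of all 1602 such sites, and the means were 55.7% and 48.9%, against 51.6% and 44.5% over all of them. Fisher's exact test, two-sided and adjusted over the 1602 sites, called 3 sites higher in DMSO, beside 10.9% of all sites, and 1 lower, beside 3.93%. Those higher were the TGACT beside the stop codon of Nup62 (52.0% and 20.9%, Fisher's exact adjusted p = 0.0061), the AGACT of Kpnb1 (59.3% and 2.22%, adjusted p = 3e-06) and the TGACC of Rcc2 (29.6% and 2.08%, adjusted p = 0.00041). The lower one was the TCATG of Nup62 (4.90% and 25.8%, Fisher's exact adjusted p = 0.021), at which 26.1% of the valid and failed calls failed in DMSO and 36.7% in WT. Each of these 4 sites was under 25% in one of the libraries and entered through the other. Across the 20 sites of Nup62, DMSO and WT levels correlated with a Pearson coefficient of 0.914, against 0.883 over all sites, where sites of a gene share their reads and are not independent.

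The 5 positions of other genes whose levels lay nearest to those of the Nup62 coding site over the 5 libraries were all lower than it in STM2457. Likeness was the Euclidean distance in percentage points among 55639 positions that every library covered with 50 valid calls or more, a minimum the Nup62 site itself did not meet, with 45 in clone 1. The 16 other sites at 90% or more in both DMSO and STM2457 are not among these positions, since 0 of them were covered in the Mettl5 dataset. The nearest was a coding GGACT of Polr1d, at 97.4% in DMSO, 76.6% in STM2457, 90.9% in WT and 96.2% and 97.1% in the clones, with a distance of 22.7. A coding GAACT of Pcbp1 (95.2% in DMSO and 75.9% in STM2457) and GGACT sites in the 3′ UTR of Ywhah (98.2% and 72.8%) and Hspa5 (95.3% and 71.2%) followed. The fifth was a GGACT of Rps4l (98.0% and 69.8%), a close copy of another ribosomal protein gene, so its reads may be shared.

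A further list of 64 nuclear transport genes, with nucleoporins, importins, exportins and mRNA export factors, gave the pathway around these members. In the METTL3 inhibition dataset 28 of them were covered and 18 held 61 sites, 56 of them in DRACH. Of 59 sites at 25% or more in DMSO, 55 (93.2%) were lower by at least 50% in STM2457, with a median relative decrease of 80.5%, beside 89.5% and 80.2% over all sites. Among the 6 that were at 90% or more in DMSO, 0 were so in STM2457, beside 2.15% of all such sites. The genes with most sites were Nxt1, a cofactor of mRNA export, with 9 sites and a mean level of 61.2% in DMSO and 14.8% in STM2457, Ranbp3, a cofactor of exportin 1, with 8 sites (66.8% and 24.1%), the importin alpha exporter Cse1l with 6 (48% and 7.81%), the exportin Xpo6 with 6 (65.2% and 23.1%) and the helicase Ddx19a with 5 (50.8% and 16.9%). Nup62 exceeded each of them in number of sites, but also in covered positions, of which it had 511. Nxt1 had 186, Ranbp3 268, Cse1l 138, Xpo6 66 and Ddx19a 361. Per covered position, sites were more frequent than on Nup62 for Nxt1, Cse1l and Xpo6, and less frequent for Ranbp3 and Ddx19a. In the Mettl5 dataset 11 of the 64 were covered and 7 held 22 sites, of which 9 were higher and 5 lower than WT in both clones, beside 45.0% and 22.9% of all sites. Fisher's exact test called 0 of the 22 in either clone at an adjusted p below 0.05, and 0 passed 0.05 in both clones without adjustment.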

How the data were processed

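The authors separated the barcoded direct RNA reads with WarpDemuX, ran dorado for basecalling, modification calling and alignment (mm10), and tallied calls per position with modkit pileup. Per the file contents, the deposited columns are counts of valid, m6A, unmodified, other and failed calls per position and strand, without normalization, at positions with at least 25 valid calls in every library of a dataset. The modification model covers inosine and 2′-O-methyladenosine beside m6A. Reads begin at the poly(A) tail, which favours 3′ ends.

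From these counts, levels were computed as m6A calls over valid calls. Positions were kept on exons of all GENCODE M21 transcripts on the strand of the call, which stood in for the RefSeq exons of the study's methods. Differences were tested per site with Fisher's exact test and Benjamini-Hochberg adjustment (scipy 1.17.1, with pandas 2.3.3 and numpy 2.4.6 under Python 3.11.15), and the test was checked on simulated data. Intervals are exact binomial at 95%. A limit for a count of 0 is 3 counts over the valid calls.

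The 7 genes and the lists were chosen with earlier results of these data known. Named were the 7 genes with every site of 25% or more, the 5 positions nearest to the Nup62 coding site, and the 5 genes with most sites among 64 further transport genes. Alternatives were other coverage, level and call thresholds, failed calls in the denominator, other exons, DRACH sites alone, and each clone left out.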

Additional observations from a re-analysis of the deposited data

How the results depend on the processing

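Of 61 alternatives, 44 left the value the same and 17 moved it. A count was taken as the same within 1.5-fold of the main count, or, for a count of 0, if it stayed 0. A level was the same within its error. With at least 50 valid calls, the Mettl5 dataset kept 3 sites, 0 sites were called between DMSO and WT, and the mean level in STM2457 was 21.3%. A threshold of 10% gave 61 sites in the METTL3 inhibition dataset and 104 in the Mettl5 dataset, 43 lowered by 50% or more, 8 called between DMSO and WT and a mean of 12.9%. A threshold of 50% gave 16, 16, 14 and 2 sites and a mean of 28.8%. These settings change how many sites are counted. The shares over all sites were not computed at them, so these counts cannot be set against the series. In place of 0 sites called in both clones, an unadjusted p below 0.05 gave 2, a log2 ratio to WT of at least 1.5 in size gave 3 (beside 1.09% of all sites higher by that ratio in both), and leaving out either clone gave 0 to 1, the 1 being the Rcc2 TGACC without clone 2. Unadjusted, 11 of 31 sites differed between DMSO and WT in place of 4, beside 480 of all 1602 sites. The levels of the Nup62 coding site stayed within their error with failed calls added to the denominator and with other modification calls left out. No paired analysis was possible because the groups share fewer than 2 replicate numbers. Depth limits the precision in the Mettl5 dataset, with a median of 40 to 48 valid calls on Nup62.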

Other observations

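Calls of a modification other than m6A were read at the same positions and made up 0.427% of the valid calls of the 4 genes in DMSO and 0.563% in WT, against 0.455% and 0.687% over all exonic positions. The class of such a call could not be told apart from these counts. In DMSO and in STM2457 their share reached 25% at 2 of the 1746 positions, and it was highest at a TCATT adenosine of Nup62 (chr7:44829039). There they made up 31 of 68 valid calls in DMSO (45.6%) and 28 of 59 in STM2457 (47.5%). At this adenosine 0 calls were m6A, and 56 and 59 further calls failed the confidence filter. A GCATT adenosine near the stop codon (chr7:44830129) had 14 of 86 in DMSO, 22 of 95 in STM2457, 11 of 27 in WT, 8 of 29 in clone 1 and 13 of 32 in clone 2. The share at the first position was alike in both libraries of its dataset, and at the second it varied from 16.3% in DMSO to 40.7% in WT, with 50 and 16 failed calls there.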
